A study of Rattus norvegicus with 4 samples.

Results

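T cells were looked for here by their CD3 transcripts, in single-cell RNA sequencing of 2 rat muscles, and were rare. A barcode (the droplet tag that stands for a cell) was taken when it had at least 2 unique molecular identifiers (UMIs, each a counted transcript) over Cd3e, Cd3d and Cd3g. It also needed at least 500 UMIs, at least 200 genes, at most 20% mitochondrial UMIs, and under 1% of UMIs from the endothelial genes Fabp4, Aqp1, Gpihbp1 and Rgcc together. The members were thus selected on measured values, and those values are given as a description. This gave 97 barcodes of the 14233 that met the quality limits, called Cd3 barcodes below. They numbered 2 in the tibialis anterior (TA, a limb muscle) labelled wild-type (WT), 25 in TA labelled DMD, 13 in extraocular muscle (EOM, the muscle of eye movement) labelled WT, and 57 in EOM labelled DMD.

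The series sets 1 library of each muscle and disease state side by side, all from rats aged 12 months and made from total cells after enzymatic digestion, with 3' tag chemistry of 10x Genomics. The labels give no strain, sex, allele or number of animals, and no treatment. DMD is the labels' abbreviation, and Duchenne muscular dystrophy, which it commonly stands for, is caused by loss of dystrophin. In all 4 samples the disease state field and the sample title state opposite states. Groups here follow the field, so that each library is the one labelled WT or DMD there. Grouped by title, every difference between the labels would change sign, and every difference between the muscles would keep it. With 1 library per group no difference between libraries has a replicate check, and a difference between muscles or labels cannot be told apart from a difference between animals or digestions. Intervals in parentheses are exact 95% intervals that cover counting error only. Library totals ran from 9468266 to 20685086 UMIs. The Cd3 barcodes held 10298, 136284, 101212 and 352209 UMIs in TA WT, TA DMD, EOM WT and EOM DMD, with medians of 5149, 4868, 5991 and 6116 UMIs per barcode. Those medians were closer to each other than the medians of all kept barcodes, which were 2490, 1176, 3672 and 4540. Between any pair of libraries 0 to 5 kept barcode sequences were shared, and 0 of them were Cd3 barcodes.

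CD3 epsilon, delta and gamma are the signalling chains that carry the T cell receptor to the cell surface, and together with the zeta chain (Cd247) they pass its signal to the kinases Lck and Zap70 and the adaptor Lat. CD4 marks helper and regulatory T cells and CD8 the cytotoxic lineage, which kills by perforin and granzymes, a programme it shares with natural killer (NK) cells. T cells enter dystrophic muscle along with macrophages, and regulatory T cells are known for their part in muscle repair.

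Cd3e, Cd3d and Cd3g chose the barcodes and also divide them into sets, and the 3 genes are neighbours on rat chromosome 8, with 0 genes between Cd3g and Cd3d and 0 between Cd3d and Cd3e in the RefSeq gene table. Their promoters, 250 bases before to 50 after the start, are therefore printed from RefSeq (build GRCr8; the counts were made on rn6). They lie at chr8:54211721-54212020 on the minus strand for Cd3e, chr8:54185269-54185568 on the plus strand for Cd3d and chr8:54183869-54184168 on the minus strand for Cd3g. Cd3g and Cd3d thus start back to back, with 1100 bases between their windows. Capitals mark the letters of the ETS core motif, AGGAAG or its reverse complement CTTCCT.
Cd3e: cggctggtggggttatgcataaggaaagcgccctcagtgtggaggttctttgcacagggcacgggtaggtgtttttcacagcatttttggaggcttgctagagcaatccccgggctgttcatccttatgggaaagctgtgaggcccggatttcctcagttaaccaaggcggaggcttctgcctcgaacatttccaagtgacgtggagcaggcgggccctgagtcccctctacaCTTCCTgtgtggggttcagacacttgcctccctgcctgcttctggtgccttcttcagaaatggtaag
Cd3d: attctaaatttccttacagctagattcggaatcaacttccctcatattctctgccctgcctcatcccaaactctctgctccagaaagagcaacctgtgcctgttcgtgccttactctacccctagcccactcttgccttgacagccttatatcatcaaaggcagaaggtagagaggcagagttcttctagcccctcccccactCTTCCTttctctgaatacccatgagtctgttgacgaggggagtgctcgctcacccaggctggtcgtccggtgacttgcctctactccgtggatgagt
Cd3g: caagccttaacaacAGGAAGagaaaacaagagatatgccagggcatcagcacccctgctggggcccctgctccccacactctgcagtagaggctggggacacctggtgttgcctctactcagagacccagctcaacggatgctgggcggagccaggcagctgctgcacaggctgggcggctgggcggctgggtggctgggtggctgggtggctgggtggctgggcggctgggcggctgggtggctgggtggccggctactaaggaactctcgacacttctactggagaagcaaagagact
Each of the 3 windows held the ETS core letters 1 time, on the minus orientation of the printed strand for Cd3e and Cd3d and the plus for Cd3g. The same letters occur on either strand in 34.5% of 33469 rat promoters of 300 bases. Neither the RUNX core TGTGGT (17.3% of promoters) nor the TATA box TATAAA (14.2%) was found in the 3 windows on either strand. These matches describe the letters only.

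Cd3 barcodes made up 0.0944% (0.0114 to 0.341) of kept barcodes in TA WT, 0.292% (0.189 to 0.431) in TA DMD, 1.03% (0.550 to 1.76) in EOM WT and 2.48% (1.88 to 3.19) in EOM DMD. Both EOM libraries thus stood above both TA libraries. EOM DMD was 8.46-fold (5.20 to 14.1) above TA DMD, and EOM WT was 10.9-fold (2.47 to 99.6) above TA WT. EOM DMD was 2.40-fold (1.30 to 4.78) above EOM WT. TA DMD was 3.1-fold above TA WT with an interval of 0.773 to 27.0, so a difference in this share was not detectable at 2 barcodes.

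These shares depend on what else was captured. Endothelial cells filled a different part of each library, and among barcodes under the endothelial limit the EOM DMD to EOM WT ratio was 1.90 (1.03 to 3.79) and the EOM DMD to TA DMD ratio 5.71 (3.51 to 9.53). Set against macrophages and monocytes, taken as barcodes with at least 2 UMIs over Csf1r, C1qa, C1qb, Cd68 and Cd14 and no Cd3 UMI, there were 0.105, 0.101, 0.245 and 0.339 Cd3 barcodes per myeloid barcode in TA WT, TA DMD, EOM WT and EOM DMD. On that scale the ratio of the DMD to the WT label was 0.958 (0.239 to 8.34) in TA and 1.38 (0.748 to 2.75) in EOM, both intervals including 1. EOM DMD stayed 3.37-fold (2.07 to 5.62) above TA DMD. Per barcode of the NK gate described below, that ratio was 1.52 (0.934 to 2.54), an interval including 1. The barcodes of both gates were shallowest in TA DMD. Medians were 6867, 1818, 7917 and 9424 UMIs in the myeloid gate, in the library order above. In the NK gate they were 7745, 2191, 7378 and 7119. The part of depth in these ratios was not tested. On the NK scale TA DMD stood 11.8-fold (2.94 to 103) above TA WT, and EOM DMD 2.27-fold (1.23 to 4.53) above EOM WT. For barcodes with a Cd3e or Cd3d UMI, EOM DMD over TA DMD per NK barcode was 4.17 (1.96 to 10.2). TA DMD over TA WT was 7.56 (1.01 to 335), from 8 barcodes against 1, and EOM DMD over EOM WT 2.16 (1.13 to 4.46). As shares of kept barcodes these ratios were, in the same order, 23.2 (10.9 to 56.7), 1.98 (0.266 to 88.0) and 2.28 (1.20 to 4.71). Per myeloid barcode EOM DMD over TA DMD was 9.23 (4.34 to 22.5). Under the endothelial limit the EOM DMD to EOM WT ratio of these barcodes was 1.81 (0.949 to 3.73), which included 1.

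**Figure D1:**
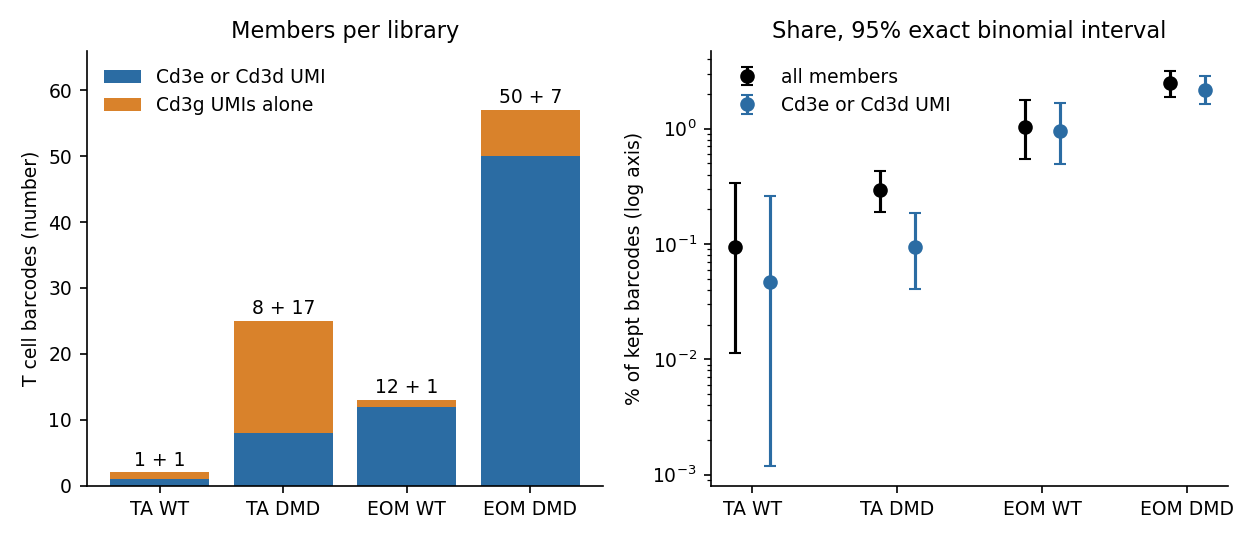
Left, Cd3 barcodes per library (axis: T cell barcodes, the members by the rule), stacked by whether a Cd3e or Cd3d UMI was seen or Cd3g alone. Right, percent of kept barcodes on a log axis, for all Cd3 barcodes and for those with Cd3e or Cd3d, with exact 95% intervals. Cd3g alone makes up 17 of the 25 in TA DMD and 7 of the 57 in EOM DMD.

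The count in TA DMD was the most sensitive to the threshold. Of the 97 barcodes 13 sat on the limit with exactly 2 Cd3 UMIs, 9 of them in TA DMD, and all 13 had Cd3g alone. Just outside, 30 kept barcodes had exactly 1 Cd3 UMI, 22 in TA DMD, 1 in EOM WT and 7 in EOM DMD, and 23 of the 30 had it from Cd3g. Of these 30 barcodes 19 had a UMI of Tyrobp, an adaptor of NK and myeloid receptors, and 1 had Lck. Of 99 barcodes with at least 2 Cd3 UMIs, 1 was lost to the quality limits and 1 to the endothelial limit, the latter at 1.05% against 0.848% in the highest barcode kept. As background, 1228, 1561, 419 and 396 endothelial barcodes (at least 1% of UMIs from the endothelial genes above and at least 2 Cdh5 UMIs), with medians of 2591, 2745, 2385 and 2917 UMIs, had any Cd3 UMI in 0.0814%, 0.128%, 0.239% and 0.253%. At least 2 Cd3 UMIs were seen in 1 of these barcodes, in TA WT.

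The label T cells held for most of these barcodes and not for the rest. Of the 97, 71 had a UMI of Cd3e or Cd3d (69 with Cd3e, 67 with Cd3d, 65 with both), and 26 had Cd3g alone. The split was made after the values were seen, so it is a description. It fell unevenly over the libraries: 1, 8, 12 and 50 barcodes had Cd3e or Cd3d in TA WT, TA DMD, EOM WT and EOM DMD, and 1, 17, 1 and 7 had Cd3g alone. The Cd3g-alone barcodes were 68.0% (46.5 to 85.1) of the Cd3 barcodes in TA DMD, 7.69% in EOM WT and 12.3% in EOM DMD. They carried a median of 2.50 Cd3g UMIs (largest 11), against 9.0 in the others.

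Among the 71 barcodes with Cd3e or Cd3d, 70 had a UMI of Lck, Lat, Bcl11b (a transcription factor of T cell commitment) or Cd5 (a surface receptor of T cells), 7 had Tyrobp and 0 had Cd79b, a chain of the B cell receptor. Among the 26 with Cd3g alone, 10 had one of the 4 genes Lck, Lat, Bcl11b and Cd5. Of the same 26, 21 had Tyrobp (16 of the 17 in TA DMD), 19 had both Tyrobp and Prf1 (perforin), and 4 had Cd79b, 1 in TA WT and 3 in EOM DMD. The sums of UMIs differed the same way. Lck stood at 413 CPM (UMIs of the gene per 1000000 UMIs) with Cd3e or Cd3d and at 6.59 CPM, 1 UMI, with Cd3g alone. Bcl11b, Lef1, Cd5, Cd6, Trat1 and Cd40lg stood between 114 and 245 CPM in the first set and at 0 UMIs in the second. Tyrobp was 466 CPM in the first set and 4236 in the second, Fcer1g (its partner adaptor) 112 and 1140, the chemokine Xcl1 228 and 1581, and the MHC class II chain Cd74 125 and 2121. Lck and Lat are not particular to T cells here: in the NK gate used below they averaged 271 and 172 CPM over 3 libraries. A UMI of Lck or Lat alone therefore does not set a barcode apart from NK cells. Of the Cd3g-alone barcodes 12 also met the 2-UMI part of that NK gate, against 13 of the 71. Other NK genes went the other way. The granzyme Gzma and the receptors Klri2 and Klrc1 averaged 0 CPM over the Cd3 barcodes of those 3 libraries. In the NK gate they averaged 1782, 233 and 49.9 CPM. The Cd3g-alone barcodes are therefore kept under the rule but called neither T cells nor NK cells here. The counts of the main comparisons are also given for the 71. The T cell receptor constant genes could not be checked, because the feature table does not hold Trac, Trbc1, Trbc2, Trdc, Trgc1 or Trgc2 under these symbols.

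**Figure D2:**
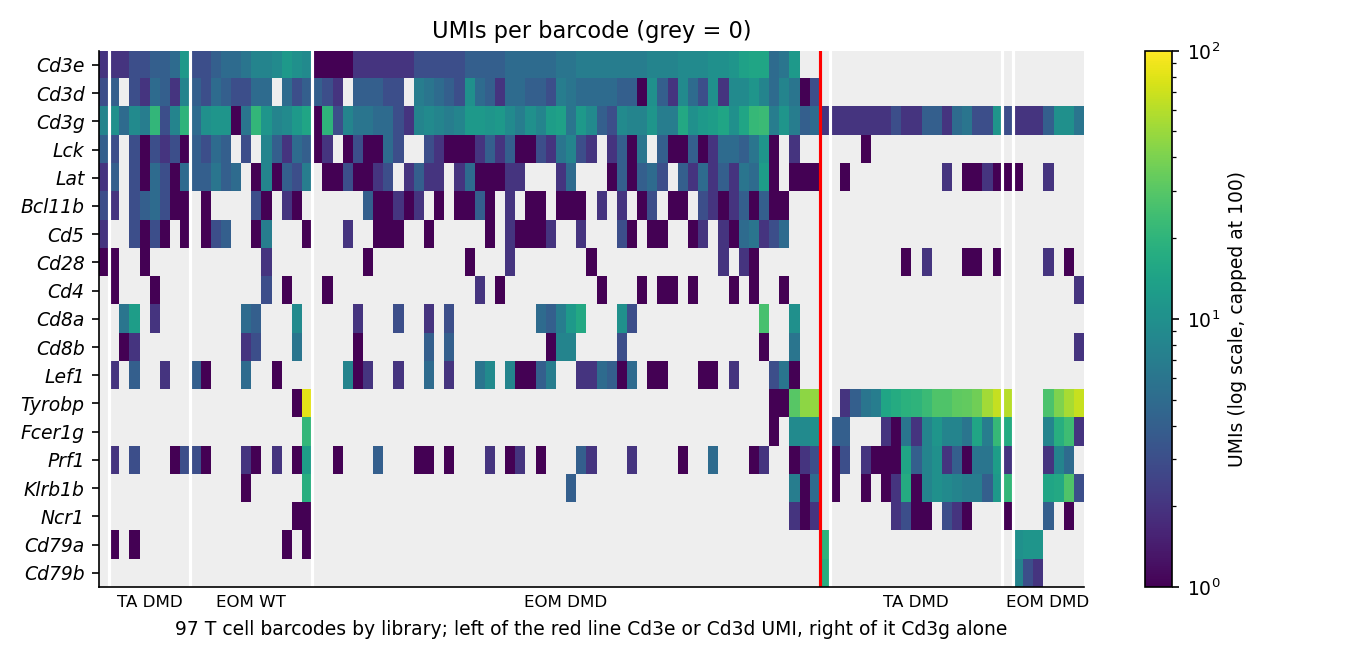
UMIs (log colour scale, grey for 0) of T cell, NK cell and B cell genes in each of the 97 Cd3 barcodes, 1 column per barcode, the 71 with Cd3e or Cd3d left of the red line and the 26 with Cd3g alone right of it, by library within each set. Lck is seen in 60 columns on the left and 1 on the right, and Tyrobp in 7 on the left and 21 on the right.

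Levels are given from here on as CPM of the summed UMIs of a library's Cd3 barcodes, in the order TA WT, TA DMD, EOM WT and EOM DMD. The TA WT sum rests on 2 barcodes, so that a gene at 0 there is only bounded at 358 CPM. Cd3g was the highest of the 3 Cd3 genes in each library, at 971 (466 to 1786), 1027 (864 to 1212), 1215 (1010 to 1450) and 1411 (1290 to 1541). Cd3e stood at 194, 257 (179 to 357), 810 (644 to 1006) and 801 (710 to 900), and Cd3d at 291, 205 (137 to 297), 435 (316 to 584) and 684 (601 to 776). Cd3e was thus low in TA DMD, where most barcodes had Cd3g alone, and its levels overlapped between the EOM libraries. In the barcodes with Cd3e or Cd3d alone it was 764, 864 and 935 CPM in TA DMD, EOM WT and EOM DMD. The selection used these 3 genes, so the values carry no test.

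Of the 27 genes of T cell receptor signalling listed, 23 were in the feature table and all 23 had a UMI in Cd3 barcodes. The phosphatase Ptprc (CD45), carried by all leukocytes, was seen in 89 of the 97 barcodes and its associated protein Ptprcap in 93. The kinase Lck was seen in 61 barcodes, at 388, 125 (72.7 to 200), 415 (299 to 561) and 349 (290 to 417) CPM. It was lowest in TA DMD, and within the barcodes with Cd3e or Cd3d it was 349 CPM there against 443 and 408 in EOM WT and EOM DMD. The zeta chain Cd247 was close to even at 97.1, 294, 287 and 253 CPM, and the adhesion receptor Cd2 likewise at 486, 660, 781 and 605. Zap70 stood at 97.1, 103, 178 and 76.7 CPM. Themis, Grap2, Rasgrp1 and Ubash3a had 10 UMIs or fewer each.

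Among transcription factors Ets1, which T cells and endothelial cells both use, was the highest at 874, 748, 721 and 673 CPM, in 88 barcodes. Bcl11b was seen in 45 barcodes at 291, 139 (83.9 to 218), 79.0 (34.1 to 156) and 156 (118 to 203) CPM. Gata3, a factor of T cell development and of type 2 helper and innate lymphoid cells, stood at 97.1, 470, 247 and 250 CPM, and Id2, which innate lymphoid and NK cells need, at 0, 470, 178 and 148. Both were highest in TA DMD, and both were higher in the sum of the Cd3g-alone barcodes (441 and 461 CPM) than in the others (248 and 143). Tbx21, the factor of type 1 and cytotoxic cells, stood at 0, 161, 119 and 45.4 CPM. Foxp3, the factor of regulatory T cells, had 18 UMIs in 12 barcodes, at 0, 7.34, 19.8 and 42.6 (23.8 to 70.2) CPM, and 0 of them in a Cd3g-alone barcode. Zbtb7b, the factor of the CD4 lineage, had 0 UMIs.

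Some cytotoxic and chemokine genes came from few barcodes, among them Ccl5, Gzmm and Gzmk. Ccl5, a chemokine of activated and memory lymphocytes, stood at 0, 154 (95.4 to 236), 237 (152 to 353) and 2941 (2765 to 3126) CPM. Its 1036 UMIs in EOM DMD lay in 8 of 57 barcodes, with 372, 276 and 242 in the highest. Ccl4 was more even across libraries at 0, 726, 1176 and 1502 CPM, in 32 barcodes. It was not even across barcodes, with 300, 101 and 51 UMIs in 3 barcodes of EOM DMD and 94 in 1 of EOM WT. Ccl3 peaked in EOM WT at 1166 CPM against 117 in TA DMD and 227 in EOM DMD, with 113 UMIs in 1 barcode of EOM WT. Perforin (Prf1) was 0, 638 (511 to 787), 247 (160 to 365) and 148 (110 to 194) CPM, highest in TA DMD, where it was 862 CPM in Cd3g-alone barcodes and 196 in the others. Gzma and Gzmb had 0 UMIs in all 97 barcodes, Gzmm 61 UMIs in 6 barcodes and Gzmk 37 in 4. Gzmb also had 0 UMIs over all kept barcodes, so its symbol says nothing about these cells, whereas Gzma reached 952 to 2833 CPM in the NK gate of the 3 libraries tested below. Cytokine transcripts were sparse: Ifng had 4 UMIs, Tnf 11, Il2 3 and Il4 20, and Il17a, Il17f, Il22, Il21, Il5 and Il13 had 0. Il7r and Ltb, both usual T cell genes, also had 0 UMIs in Cd3 barcodes, and Il7r had 0 over all kept barcodes.

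Genes of naive and circulating T cells were present with those of residence. Lef1, a factor of naive and memory T cells, was seen in 34 barcodes at 0, 58.7 (25.3 to 116), 109 (54.3 to 194) and 258 (208 to 317) CPM, and S1pr1, the receptor for leaving tissue, in 46 at 194, 169, 385 and 182 CPM. Ccr7, a receptor for entry into lymph nodes, was seen in 9 barcodes. Of the residence genes, Cd69 was seen in 53 barcodes at 874, 580, 405 and 236 CPM and Rgs1 in 34. Xcl1 stood at 0, 1328 (1142 to 1536), 267 (176 to 388) and 380 (319 to 451) CPM and was highest in TA DMD, where 1967 CPM came with Cd3g alone and 65.5 CPM, 3 UMIs, with Cd3e or Cd3d. Itgae was seen in 15 barcodes and Cxcr6 in 5. Checkpoint receptors were low: Pdcd1 was seen in 8 barcodes, Ctla4 in 14, Lag3 in 9, Havcr2 in 1 and Tigit in 1.

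To divide the barcodes by lineage, UMIs of Cd4 and of Cd8a or Cd8b were counted in each. Cd4 alone was seen in 14 of 97 barcodes (14.4%, 8.12 to 23.0), Cd8 alone in 18 (18.6%, 11.4 to 27.7), both in 2 and neither in 63 (64.9%, 54.6 to 74.4). In TA DMD, EOM WT and EOM DMD, Cd4-only barcodes numbered 1, 2 and 11 and Cd8-only barcodes 2, 3 and 13, while both TA WT barcodes had neither. Shares of Cd4-only barcodes overlapped in their intervals between libraries, at 4.0% (0.101 to 20.4), 15.4% (1.92 to 45.4) and 19.3% (10.0 to 31.9), as did Cd8-only shares at 8.0% (0.984 to 26.0), 23.1% (5.04 to 53.8) and 22.8% (12.7 to 35.8). Within the 71 barcodes with Cd3e or Cd3d, 14 were Cd4 only, 18 Cd8 only, 1 both and 38 neither.

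A barcode with neither UMI may still express the gene. Cd4 was sparse, with 20 UMIs in 16 barcodes, and with barcodes thinned to 1000 UMIs 3 of 93 were Cd4 only and 14 Cd8 only (4 shallower barcodes, all in TA DMD, were left out). Endothelial barcodes, which should lack both genes, had a Cd4 UMI in 0%, 0.0641%, 0% and 0.253% and a Cd8 UMI in 0%, 0.128%, 0.239% and 0.505% in the 4 libraries, below the shares here. Cd8a is not particular to T cells in these libraries: it stood at 340 CPM over the NK gate, with no Cd3 UMI there, against 154, 178 and 292 CPM in the Cd3 barcodes of TA DMD, EOM WT and EOM DMD.

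The 2 gates differed in genes that the gates did not use. In summed UMIs, 111999 for Cd8 only and 88219 for Cd4 only, Ctsw (cathepsin W, a protease of cytotoxic cells) was 741 CPM (590 to 919), seen in 14 of 18 Cd8-only barcodes, against 90.7 CPM (39.2 to 179), in 2 of 14 Cd4-only barcodes. Ccl4 was 5277 CPM against 11.3, seen in 11 of 18 Cd8-only barcodes, but 3 of them held 300, 101 and 94 of its 591 UMIs. Gzmm was 536 CPM, Nkg7 393, Gzmk 330 and Ccl3 1643, all against 0 UMIs in Cd4-only barcodes. They were seen in 5, 6, 4 and 7 of the 18 Cd8-only barcodes, so most of these barcodes lacked each of them. For Ccl3, 113 of 184 UMIs lay in 1 barcode. Ccl5 was 6259 CPM (5804 to 6740), but from 4 of the 18 barcodes, against 0 UMIs, at most 41.8 CPM. On the helper side Cd40lg, the ligand by which helper cells activate B cells, was 249 CPM (156 to 378), in 5 of 14 barcodes, against 89.3 (42.8 to 164), in 2 of 18, and Tnfrsf18, a receptor high on regulatory T cells, 215 CPM (130 to 336) against 80.4 (36.7 to 153). Foxp3 was 45.3 CPM (12.4 to 116), in 3 of 14 barcodes, against 0 UMIs, at most 32.9 CPM. The intervals of these 3 genes overlapped between the gates, as did those of Lef1, at 348 CPM (248 to 476) in Cd8-only and 249 CPM (156 to 378) in Cd4-only barcodes. The gates pool libraries and most of their barcodes are from EOM DMD, so these values describe that library more than the others, and no test was made.

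**Figure D3:**
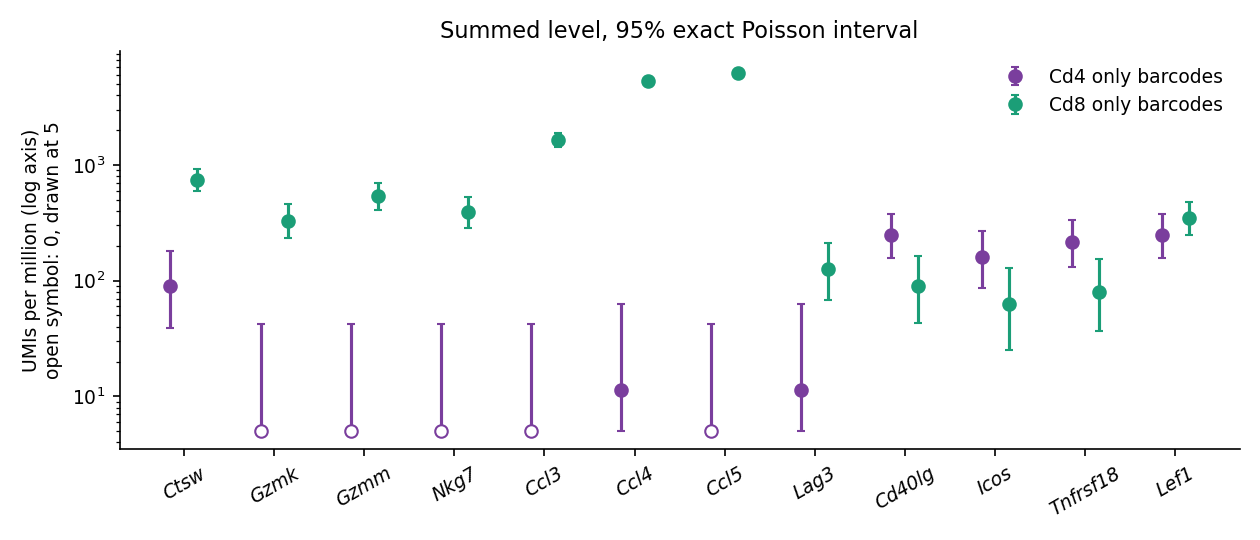
CPM (log axis) of genes summed over the 14 Cd4-only and the 18 Cd8-only barcodes, with exact 95% Poisson intervals, open symbols for 0 UMIs drawn at 5 and intervals ending there. Ctsw, 741 CPM against 90.7, is higher in the Cd8-only sum, while the intervals of Cd40lg, 249 CPM in the Cd4-only sum against 89.3, and of Lef1 overlap between the gates.

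Of the pairs of libraries that differ in muscle alone or in disease label alone, 2 had at least 10 Cd3 barcodes on both sides, EOM DMD with EOM WT and EOM DMD with TA DMD, and they share EOM DMD. TA DMD and EOM WT differ in both and were not compared. A gene is called higher or lower here when its log2 ratio, taken with 10 CPM added to both sides, passed 2-fold and the exact interval of the plain ratio excluded 1. Printed folds are plain ratios. UMIs of a cell are not independent draws, so these intervals are too narrow for genes carried by few barcodes.

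In EOM DMD against EOM WT, few genes of the T cell lists passed in either direction. Of 20 genes of T cell receptor signalling measured, 0 were higher and 1 lower (Zap70, 76.7 against 178 CPM). The background was 128 of 4965 genes higher (2.58%) and 229 lower (4.61%). Lck was 349 CPM against 415. Among 19 transcription factors 1 was higher (Lef1, 258 against 109 CPM, 2.38-fold, 1.27 to 4.93) and 2 lower (Tbx21, 45.4 against 119, and Ikzf1, 22.7 against 79.0). Among 8 genes of helper and regulatory cells 0 passed in either direction, nor did any of 7 residence genes, 5 checkpoint genes or 10 cytokine receptors. Of 8 naive and circulating genes 2 were higher and 2 lower, of 13 trafficking receptors 1 and 3, and of 9 cytokines 2 and 1. With Cd3e or Cd3d barcodes alone 0 of 19 receptor signalling genes passed, 2 of 18 transcription factors were higher and 2 lower, 2 and 1 of 8 naive genes, 1 and 1 of 13 trafficking receptors, 1 and 1 of 8 cytokines and 0 and 1 of 6 residence genes.

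Of 15 cytotoxic genes 3 were higher and 2 lower. Ccl5 was higher in sum, 2941 against 237 CPM, 12.4-fold (8.29 to 19.4), from 8 and 4 barcodes. The fold rests mostly on the EOM DMD barcodes with 372, 276 and 242 UMIs. Gzmk was 96.5 against 29.6 CPM, from 3 barcodes and 1. Gzmf had 22 UMIs against 0, which is at least 2.11-fold against a floor of 3 counts over the library's barcodes, the floor used in this paragraph and the next. Nkg7, a granule protein, was lower at 159 against 514 CPM (3.23-fold, 2.17 to 4.80), as was Gzmc. In EOM WT 41 Nkg7 UMIs lay in 1 barcode, which also had 83 UMIs of Tyrobp and 24 of the NK gate genes. That barcode was doublet-like by the limits given under processing. It held 28182 of the 101212 UMIs of the EOM WT sum, which the tests below also use. Ccl3, of the chemokines, was lower at 227 against 1166 CPM (5.13-fold, 3.83 to 6.91), with 118 UMIs in 3 barcodes of EOM WT. Of these UMIs 113 lay in 1 doublet-like barcode, so the fold rests mostly on that barcode. The cytotoxic genes thus went both ways, and with Cd3e or Cd3d barcodes alone 2 of 13 were higher and 1 lower. Rat granzymes and Ly49 or Klr receptors are families of close copies, so the level of a single member is uncertain.

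Other named genes that were higher in EOM DMD included Cd7 (28 UMIs against 0, at least 2.68-fold), Ptpre (30 against 0, at least 2.87-fold), the survival kinase Pim2 (105 against 9.88 CPM) and Gpr174 (85.2 against 9.88 CPM). Ighm, the immunoglobulin mu chain, had 47 UMIs against 0, and 45 of the 47 lay in Cd3g-alone barcodes, as did 77 of 78 UMIs of the unnamed gene model AABR07060872.1. Lower genes included Slamf6 (a receptor of the SLAM family on T cells, 56.8 against 277 CPM, 4.87-fold, 2.65 to 9.12), Stmn1 (a microtubule protein of dividing cells, 99.4 against 445, 4.47-fold, 2.81 to 7.17), Klf6 (312 against 1087, 3.48-fold, 2.65 to 4.57), Tsc22d3 (a glucocorticoid-induced gene, 278 against 771) and S100a4 (1153 against 3033, 2.63-fold, 2.26 to 3.06). The Stmn1 UMIs of EOM WT came from 5 of 13 barcodes, those of S100a4 from 9. Nipal1 and the unnamed gene model AABR07072400.1 were also among the 10 genes named as higher, and Insig1, Ywhah, Slc20a1, Tagap and Adgre5 among the 10 named as lower, by 2.61-fold to 3.65-fold.

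Of 6 proliferation genes 0 were higher and 2 lower, Stmn1 and Tubb5 (491 against 1176 CPM, 2.39-fold, 1.88 to 3.04). Mki67, the proliferation marker, had 11.4 and 9.88 CPM. Of 15 immediate early and stress genes 0 were higher and 4 lower (Fosb, Hsph1, Hspa1b and Hsp90aa1), with Fosb at 429 against 1363 CPM (3.18-fold, 2.51 to 4.03). These transcripts were abundant in other cells too: Fosb was 1670 CPM over all kept barcodes of EOM DMD and 1252 over those of EOM WT. With Cd3e or Cd3d barcodes alone 7 of 15 immediate early and stress genes were lower and 0 higher, and of the 6 proliferation genes again 2 were lower and 0 higher. Klf2, a factor of quiescent circulating T cells, was 51.1 against 346 CPM (6.77-fold lower, 3.73 to 12.7), and over all kept barcodes it was 38.6 against 252, a difference of the same direction in the whole libraries. The part of free RNA in Fosb and Klf2 was not tested. Of 5 MHC class II genes 4 were higher, among them Cd74 at 801 against 237 CPM (3.38-fold, 2.22 to 5.36). In the barcodes with Cd3e or Cd3d 0 were higher and 2 lower, with a list median of -0.92 in place of 1.71 on the log2 scale (all genes: -0.07 and -0.05). In those barcodes 98 of 4421 genes were higher (2.22%) and 220 lower (4.98%). Endothelial markers, 0 higher and 3 lower of 5 measured, moved too: Aqp1 had 23 UMIs in 1 barcode of EOM WT, and the summed level of the listed endothelial markers was 508 CPM in EOM DMD against 1788 in EOM WT. Their part in the lower genes was not tested.

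In EOM DMD against TA DMD, a few T cell genes were higher and most of the NK markers lower, and TA DMD had the larger share of Cd3g-alone barcodes. Of 20 genes of T cell receptor signalling 2 were higher, Lck (349 against 125 CPM, 2.80-fold, 1.68 to 4.96) and Sit1 (119 against 22.0), and 0 lower, where 157 of 5343 genes were higher (2.94%) and 478 lower (8.95%). The list's median was 0.19 on the log2 scale, against -0.18 over all genes measured. Of 18 transcription factors 2 were higher and 2 lower, and of 8 genes of helper and regulatory cells 1 was higher. Of 9 genes of naive and circulating cells 3 were higher (Lef1, Satb1 and Klf3), with Lef1 at 258 against 58.7 CPM (4.4-fold). Cxcr4, a chemokine receptor, was 517 against 191 CPM (2.71-fold, 1.79 to 4.26), and Icos, a costimulatory receptor, 90.9 against 14.7. Of 8 NK markers 1 was higher (Klrd1, 264 against 88.1 CPM) and 6 lower, among them Prf1 (148 against 638, 4.32-fold, 3.03 to 6.22) and Tyrobp (897 against 2869, 3.20-fold, 2.75 to 3.72). Of 14 cytotoxic genes 6 were higher and 5 lower. All 5 MHC class II genes measured were higher, with a median of 1.98 on the log2 scale, and 0 of the 5 passed with Cd3e or Cd3d alone (median 0.65). Both B cell markers measured were higher, and with Cd3e or Cd3d alone 0 were measured. Of 7 residence genes 4 were lower, with Xcl1 at 380 against 1328 CPM (3.49-fold, 2.78 to 4.4). The summed level of the listed NK markers was 2004 CPM in EOM DMD against 5481 in TA DMD, and that of the endothelial markers 508 against 3199, and the part of other cells' RNA in these differences was not tested.

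Restricted to barcodes with Cd3e or Cd3d, of which TA DMD had 8, the receptor signalling genes did not pass and the NK markers that passed were higher, not lower. Of 19 genes of T cell receptor signalling 0 passed in either direction, and of 9 naive genes 0 were higher and 1 lower. Of 7 NK markers 4 were higher and 0 lower, with a median of 2.50 on the log2 scale in place of -1.51, at a background of 62 of 4003 genes higher (1.55%) and 187 lower (4.67%). Tyrobp was seen in 5 of these 50 barcodes of EOM DMD, with 30, 47 and 46 UMIs in 3 of them, and in 0 of the 8 of TA DMD. Those 3 also had 9, 10 and 9 UMIs of Fcer1g. The last 2 of them had 0 UMIs of Cd3e and Lck, and 24 and 15 UMIs of the NK gate genes. Of 12 cytotoxic genes 5 were higher and 0 lower, and of 7 cytokines 4 and 0. Of the immediate early and stress genes 8 of 15 were lower over the Cd3 barcodes and 8 of 14 with Cd3e or Cd3d. Fos was 843 against 2906 CPM (3.45-fold, 2.96 to 4.02) and Egr1 105 against 910 (8.66-fold, 5.96 to 12.9) over the Cd3 barcodes, and 494 against 1397 and 36.5 against 131 with Cd3e or Cd3d. Over all kept barcodes Fos was about even, at 6093 and 5910 CPM. The summed Ccl5 level was higher under both, 19.1-fold (12.4 to 31.0) over the Cd3 barcodes. With Cd3e or Cd3d it was 3.61 against EOM WT and 2.94 against TA DMD on the log2 scale. Barcodes with 276, 372 and 242 UMIs, the last with Cd3g alone, held most of the 1036 in EOM DMD. All 14 TA DMD UMIs with Cd3e or Cd3d lay in 1 barcode. Among thinned barcodes the share with a Ccl5 UMI was close to even, at 14.3%, 15.4% and 14.0% in TA DMD, EOM WT and EOM DMD. The higher sums thus rest on few barcodes. Gzmm had 49 UMIs, all with Cd3e or Cd3d, against 0 in TA DMD (at least 6.32-fold by the floor over the library's barcodes, exact lower limit 4.95). Over the Cd3 barcodes Gimap7, a GTPase of lymphocyte survival, was 338 against 66 CPM (5.12-fold, 2.61 to 11.5). With Cd3e or Cd3d its log2 ratio was 1.31. The remaining genes named as higher over the Cd3 barcodes were Cisd3, Ighm, AABR07060872.1, AABR07001432.1, LOC100911372, Rps19l2 and LOC102555453. With Cd3e or Cd3d the log2 ratio of Rps19l2 was 0.97, under the limit for a call, and Ighm and AABR07060872.1 were not measured.

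The 10 genes named as lower in EOM DMD against TA DMD all had 0 UMIs in the 8 TA DMD barcodes with Cd3e or Cd3d, so all of their TA DMD UMIs lay in Cd3g-alone barcodes. Igf2, a growth factor, had 301 UMIs in 13 TA DMD barcodes (2209 CPM) against 0 in EOM DMD, at least 259-fold by the floor over the library's barcodes (exact lower limit 210). The NK gate of TA DMD had 259 CPM of Igf2, and that of EOM DMD 4.66. Mt3, a metallothionein, had 41 UMIs against 0 (at least 35.3-fold by the floor, exact lower limit 27.5). G0s2 was 28.4 against 352 CPM (12.4-fold, 6.20 to 27.5), and Klrg1, an inhibitory receptor of NK and T cells, 45.4 against 345 CPM (7.59-fold, 4.23 to 14.3). The others were RGD1308751, Cnga4, Klri1, Mcpt1l4, Rasl10a and Afmid, each between 176 and 264 CPM in TA DMD.

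Cd3 barcodes were then compared with NK cells, the lymphocytes most like them, in a test with libraries as replicates. The NK gate took barcodes with at least 2 UMIs over Ncr1, Klre1 and Klrd1 and no Cd3 UMI, 17, 18, 14 and 27 in the 4 libraries. UMIs were summed per library and gate, TA WT was left out for its 2 Cd3 barcodes, and edgeR's quasi-likelihood test with the library as a block was run over 3 libraries, with Benjamini-Hochberg adjustment over 7506 genes. Log2 differences are given with a standard error computed from the difference and the test's F statistic. Genes used by either gate were left out of the results.

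Some T cell receptor adaptors, transcription factors and helper genes were higher in Cd3 barcodes and some cytotoxic genes in NK barcodes, while most tested members of these lists did not pass. Of 20 genes of T cell receptor signalling tested 7 were higher and 0 lower, where 110 genes were higher (1.47%) and 88 lower (1.17%). The list's median was 1.07 on the log2 scale against 0.05 over all genes tested. Cd5, Sit1, Trat1, Cd6, Prkcq and Lat were among them. Cd5 was 66, 168 and 139 CPM in TA DMD, EOM WT and EOM DMD against 0 UMIs in the NK gate, at least 17.1-fold when the NK sum is set to a floor of 3 counts (adjusted p = 4.81e-06). Trat1, an adaptor of the receptor complex, differed by 4.02 ± 0.66. Proximal genes shared with NK cells did not pass: Lck was 125, 415 and 349 CPM against 333, 201 and 280 (adjusted p = 0.930), overlapping between the gates, and Cd247, Zap70 and Cd2 did not pass either.

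Of 20 transcription factors 3 were higher and 1 lower. Lef1 was 58.7, 109 and 258 CPM against 0 UMIs, at least 25.1-fold (adjusted p = 1.02e-06), Bcl11b differed by 3.84 ± 0.62 and Satb1, a chromatin organiser of T cells, by 4.11 ± 0.61, each higher in 3 of 3 libraries. Tbx21 was lower by 1.81 ± 0.33 (log2 difference -1.81). Of 9 genes of helper and regulatory cells 3 were higher: Cd40lg (95.4, 207 and 125 CPM against 0 UMIs, at least 17.8-fold, adjusted p = 2.40e-06), Icos (at least 10.5-fold) and Cd4 itself. Of 9 naive and circulating genes 4 were higher, with S1pr1 at 3.54 ± 0.44. Art2b, a surface ADP-ribosyltransferase of rat T cells, was 44.0, 247 and 176 CPM against 0 UMIs (at least 21.2-fold, adjusted p = 8.25e-07), Ms4a4c at least 20.3-fold and Slamf6 at least 12.5-fold higher. All of the UMIs of Lef1, Art2b, Ms4a4c, Cd40lg, Cd5 and Icos lay in barcodes with Cd3e or Cd3d. Rgs10 (5.12 ± 0.67) and Rab3ip (5.14 ± 0.81) were the remaining named genes that were higher, with RT1-Da described below. Rgs10 did not pass without EOM DMD (3.88) or without EOM WT (8.24), and stood at 5.03 without TA DMD. Rab3ip did not pass without EOM DMD (4.03) or without EOM WT (4.73), and stood at 7.46 without TA DMD.

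Of 15 cytotoxic genes 6 were lower in Cd3 barcodes and 1, Cd8b, higher. Gzma had 0 UMIs in Cd3 barcodes and was 2833, 952 and 1562 CPM in the NK gate, at least 301-fold (adjusted p = 9.18e-14). Gzmk was 0, 29.6 and 96.5 CPM against 3240, 1346 and 2533 (-5.50 ± 0.43), and Ccl5 154, 237 and 2941 against 16461, 7769 and 18013 (-4.50 ± 0.44, adjusted p = 2.08e-08). Prf1 differed by -2.72 ± 0.29 and Nkg7 by -2.90 ± 0.30, each lower in 3 of 3 libraries. Of 9 NK markers outside the gate 7 were lower. Tyrobp, at 2869, 1433 and 897 CPM against 2722, 4260 and 4576 (-1.17 ± 0.30), did not separate in TA DMD. The receptors Klri2 (at least 30.7-fold lower) and Ly49s6 (-4.07 ± 0.54) belong to families of close copies, as does Gzmbl3 (at least 40.0-fold lower). Nrgn, Slc27a2, Camk2n1 and Focad were also lower, with log2 differences of -5.32, -5.13, -4.11 and -3.98. Single libraries moved several of these values. Without EOM DMD Ly49s6 was -8.12, Gzmk -7.20 and Ccl5 -5.79, all still passing, while Nrgn (-4.41), Camk2n1 (-3.08) and Focad (-3.60) did not pass. Without EOM WT Ly49s6 (-3.82), Gzmk (-5.70), Ccl5 (-4.33), Nrgn (-5.26), Camk2n1 (-4.77) and Focad (-5.17) did not pass. Without TA DMD all 6 passed, with Ly49s6 at -3.41, Gzmk at -4.72, Ccl5 at -3.41 and Nrgn at -7.21. Proliferation genes were lower in 4 of 12 tested and higher in 0, with Mki67 at -2.44 ± 0.48 and Top2a at -3.50 ± 0.60. Of 14 interferon response genes 0 passed in either direction in edgeR's test, where 814 of all 7506 genes had an unadjusted p under 0.05.

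All 5 MHC class II genes tested were higher in Cd3 barcodes. RT1-Da was 95.4, 79.0 and 406 CPM against 0, 0 and 4.66 (6.47 ± 0.69), and 141 of its 164 UMIs lay in Cd3g-alone barcodes. With Cd3e or Cd3d 3 of the 5 passed, and RT1-Da differed by 4.15 ± 1.05. Cd79a, a B cell receptor chain, was higher as well, and its gene was not tested with Cd3e or Cd3d.

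**Figure D4:**
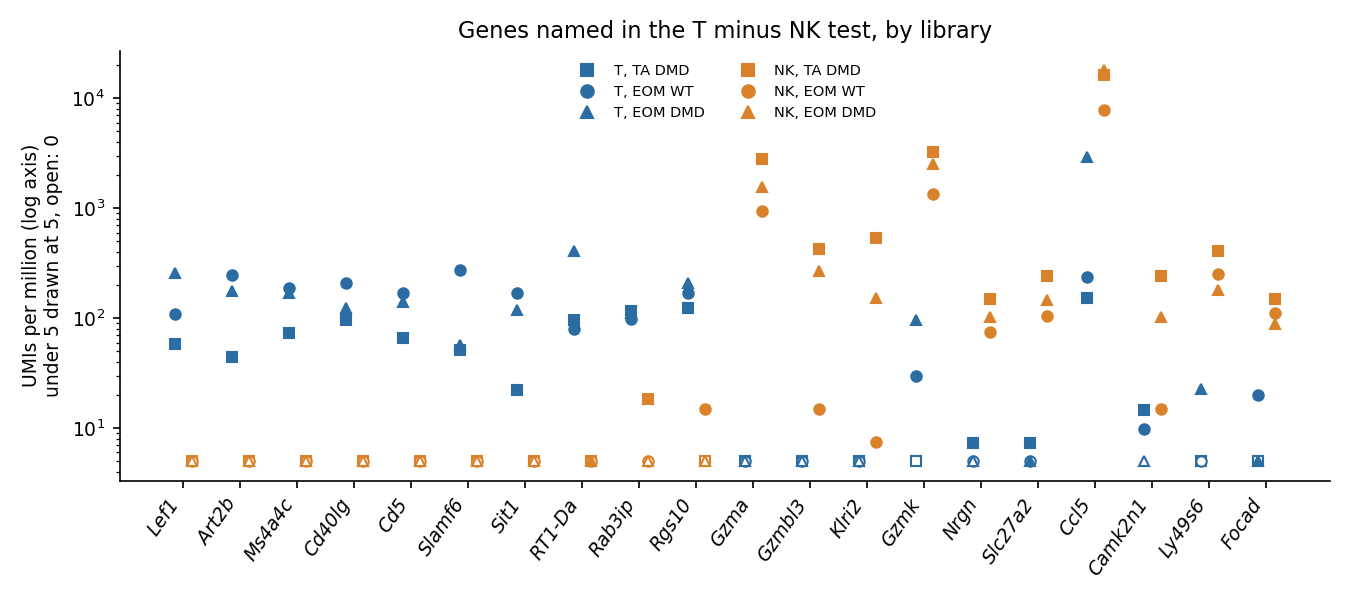
CPM (log axis) of the 20 genes named in the comparison, in Cd3 barcodes (labelled T) and in the NK gate of TA DMD, EOM WT and EOM DMD, with values under 5 drawn at 5 and open symbols for 0 UMIs. Lef1, Cd5 and Cd40lg are at 0 in each NK sum, and Gzma is at 0 in each Cd3 sum.

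With 2 residual degrees of freedom the counts moved with each library. Without TA DMD 232 genes were higher and 192 lower, without EOM DMD 10 and 18, and without EOM WT 7 and 5. With Cd3e or Cd3d barcodes alone 200 of 6881 genes were higher (2.91%) and 233 lower (3.39%), and Tyrobp differed by -3.21 ± 0.30. In those barcodes 9 of 20 receptor signalling genes were higher and 0 lower, 6 and 4 of 20 transcription factors, 5 and 0 of 9 helper genes, 7 and 0 of 9 naive genes, 2 and 10 of 15 cytotoxic genes, 0 and 5 of 12 proliferation genes and 0 and 7 of 9 NK markers.

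Against the myeloid gate (248, 53 and 168 barcodes in TA DMD, EOM WT and EOM DMD), in the same edgeR test over 10887 genes, Cd3 barcodes were higher for nearly all T cell signalling genes and lower for phagocyte and antigen presentation genes. Of 21 genes of T cell receptor signalling 18 were higher and 0 lower, with a list median of 6.15 against -0.18 over all genes, where 725 genes were higher (6.66%) and 1498 lower (13.8%). Lck was 125, 415 and 349 CPM against 2.05, 4.25 and 4.06 (6.13 ± 0.39), and Lat differed by 8.41 ± 0.47. Bcl11b had 0 myeloid UMIs (at least 147-fold), as did Cd27, a costimulatory receptor (at least 165-fold), Art2b (at least 167-fold), Ms4a4c (at least 160-fold) and Cd40lg (at least 140-fold). Ccl5 differed by 9.01 ± 0.53, and by 6.01 without EOM DMD and 10.17 without TA DMD. Of 15 cytotoxic genes 13 were higher and 0 lower, and of 23 transcription factors 13 were higher and 2 lower. Of 11 proliferation genes 6 were higher, among them Stmn1 (2.94 ± 0.29). The unnamed gene models AC109737.1 (338, 1284 and 741 CPM against 0 UMIs, 426 of its 437 UMIs with Cd3e or Cd3d) and AC142181.1 (440, 534 and 551 CPM, a log2 difference of 9.78, 8.63 without EOM DMD and 11.44 without TA DMD) were among the genes that differed most.

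Cck, which encodes the peptide cholecystokinin, was 271, 188 and 202 CPM in Cd3 barcodes against 0 UMIs in the myeloid gate, at least 228-fold. Of its 127 UMIs 87 lay in Cd3g-alone barcodes, and of the 72 UMIs of Klrg1 (at least 129-fold) 66 did. C1qc, a complement chain of macrophages, had 0 UMIs in Cd3 barcodes and 888, 1552 and 2875 CPM in the myeloid gate, at least 406-fold lower, and Lyz2 had 4 UMIs against 34905 (-10.73 ± 0.53, with -15.87 without TA DMD and -9.58 without EOM DMD). Clec10a, Cxcl2, Slpi, Folr2, Fcnb, LOC690045, F13a1 and Mal, the other named genes that were lower, had 0 UMIs in Cd3 barcodes of the 3 libraries. All 10 macrophage and monocyte markers tested were lower, and 6 of 7 MHC class II genes were. Cd4 was lower in Cd3 barcodes than in the myeloid gate (31.3 against 95.2 CPM as means over libraries, -1.76 ± 0.37). Rat macrophages are known to carry Cd4. Of 17 immediate early and stress genes 0 were higher and 11 lower. With Cd3e or Cd3d barcodes 498 of 10733 genes were higher (4.64%) and 1629 lower (15.2%), with 19 of 21 receptor signalling genes higher and 0 lower, 11 and 2 of 23 transcription factors, 11 and 1 of 14 cytotoxic genes, 3 and 0 of 11 proliferation genes and 0 and 11 of 17 immediate early genes. Without EOM DMD 377 genes were higher and 878 lower.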

How the data were processed

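Per the file headers, reads were counted with Cell Ranger 4.0.0, and the submitters' processing notes name the build rn6. Annotation and read filters: not given in the sources used here. What the authors deposited per library is a table of UMI counts, whole and not normalized, for 25399 genes by barcode.

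The members, gene lists and gates were chosen with earlier results of these data known. The split by Cd3e or Cd3d was added after the values were seen. Of 356 listed symbols 20 are not in the feature table, so Klrb1a was dropped from the NK gate and Pecam1 from the endothelial reference. No doublet caller was run. As an alternative, 20 doublet-like Cd3 barcodes (at least 2 UMIs of the myeloid gate genes, of Cdh5, or over Pdgfra, Dcn and Col1a1) were left out.

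The NK and myeloid gates also required the quality limits and the endothelial limit of the Cd3 rule. UMIs were summed per library and gate. CPM carry exact Poisson intervals, shares Clopper-Pearson intervals, and folds conditional binomial intervals, and none covers variation between cells. PCR duplicates are removed by UMIs. A gene entered a pair with at least 10 UMIs. Sums were tested with edgeR 4.0.16 (TMM, at least 10 UMIs, glmQLFit and glmQLFTest, adjusted p under 0.05, library as block), and DESeq2 1.42.0 was an alternative. The code was tested on simulated data. No labels say whether libraries are separate animals, so p-values refer to these libraries only. edgeR estimates each gene's variance with information shared over all genes. The p-values and standard errors thus do not measure a gene's own spread over 3 libraries. Lyz2 against the myeloid gate had a standard error of 0.53, and its log2 difference ran from -15.9 to -9.58 with 1 library left out.

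Named genes are those of the lists, plus the 10 highest and 10 lowest per comparison. In tests these had to pass, move the same way in every library and reach 100 CPM. In pairs they needed 20 UMIs in 5 barcodes of the higher library and 2 times the CPM of all kept barcodes there. Genes outside this rule were named after their values were seen. A model over all 4 libraries with muscle and label as terms was not fitted. Python 3.11.15 and R 4.3.3 were used. Some genes of the lists are counted in them and not reported here by name.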

Additional observations from a re-analysis of the deposited data

Results flagged for a closer look

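The Cd3 barcodes per myeloid barcode moved in opposite directions with the label in the 2 muscles, with a log2 ratio of DMD over WT of -0.06 in TA and 0.47 in EOM. With Cd3e or Cd3d barcodes the values were -0.71 and 0.39. Each rests on 1 library against 1, all 4 counting intervals include a ratio of 1, and the difference between muscles was not tested.

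Barcodes with exactly 1 Cd3 UMI, which no comparison used, numbered 22 in TA DMD and 7 in EOM DMD, against 0 in TA WT and 1 in EOM WT. In TA DMD 16 of the 22 had a Tyrobp UMI and 0 had Lck. The part of NK or myeloid cells in them was not tested.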

How the results depend on the processing

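Counts of genes that pass a limit depended most on the settings. For EOM DMD over EOM WT the 128 higher and 229 lower genes became 20 and 38 with 100 CPM added in place of 10, 15 and 32 with barcodes thinned to 1000 UMIs, 399 lower without a minimum of UMIs, and 143 lower without doublet-like barcodes. For EOM DMD over TA DMD the 157 and 478 became 41 and 89, 55 and 85, and 760 lower under the first 3 of these, and 62 and 187 with Cd3e or Cd3d barcodes. Thinning also turned 1 named gene, Tagap in EOM DMD over EOM WT, from -1.49 to 0.04 on the log2 scale; the cause was not tested.

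For Cd3 barcodes minus NK barcodes, the 110 higher and 88 lower genes became 27 and 22 with DESeq2, 49 and 45 without the library block, 200 and 233 with Cd3e or Cd3d barcodes, and 210 and 210 with those and without TA DMD. Leaving out 1 library gave 7 to 232 higher and 5 to 192 lower. Against myeloid barcodes, 725 and 1498 became 277 and 602 with DESeq2, and 377 to 650 and 878 to 1263 with 1 library left out. Fewer libraries leave 1 residual degree of freedom. All named genes of both tests kept their direction where they were fitted. Naming required the same direction in every library, so this was largely fixed in advance and is no check. Under the alternatives 32 values no longer passed.

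The share of Cd3 barcodes was 0% in TA WT when thinned. In TA DMD it was 0.550% with at least 1 Cd3 UMI, 0.187% with at least 3 and 0.0936% with Cd3e or Cd3d, and in EOM DMD 1.83% when thinned. The log2 ratio of EOM DMD over TA DMD was 2.34 with at least 1 Cd3 UMI and 4.54 with Cd3e or Cd3d, against 3.08. Cd4-only barcodes in TA DMD were 0% with at least 2 UMIs, without doublet-like barcodes and when thinned, and barcodes with neither gene were 50% of those with Cd3e or Cd3d. In EOM DMD Cd4-only barcodes were 1.75% with at least 2 UMIs and 3.51% when thinned, and those with neither 73.7% and 77.2%. Another 104 planned values stayed within the limits set for a change.

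The 97 barcodes limit all results: 2 in TA WT allow no expression comparison, and a gene with 0 UMIs in TA DMD is bounded only at 27.1 CPM. No paired analysis was possible because each group has 1 library; within the tests the library was the block.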
